A study of Rattus norvegicus with 24 samples.

Results

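The 42 genes described here encode the machinery of autophagy and the lysosome, and were followed in the tibialis anterior (TA) of aged rats through disuse atrophy, recovery and repeated atrophy. They were chosen by gene symbol, with earlier results of these data known, out of 13458 symbols in the table, and all 42 were present and tested. By role, 9 genes act in initiation and nucleation, 7 in conjugation, 5 form the Atg8 family, 4 encode cargo receptors, 1 is the segregase Vcp and 2 are transcription factors. The lysosomal genes comprise 4 membrane proteins, 8 enzymes and 2 cofactors of enzymes. The first 4 classes, 25 genes in all, are called the machinery below, and are compared with the 8 lysosomal enzymes.

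In macroautophagy, a kinase complex around Ulk1 and a lipid kinase complex around Becn1, Pik3c3 and Atg14 start a membrane that grows around cytoplasm. Conjugation enzymes (Atg3, Atg4, Atg5, Atg7, Atg12, Atg16l1) attach proteins of the Atg8 family (LC3 and GABARAP) to that membrane, where receptors such as p62 (Sqstm1) and Nbr1 deliver ubiquitinated cargo. The closed autophagosome fuses with a lysosome, in which cathepsins and glycosidases degrade its content. In skeletal muscle this route runs beside the proteasome during wasting, and the factors Tfeb and Tfe3 are known to drive lysosomal and autophagy genes when they enter the nucleus.

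RNA was sequenced from both hind limbs of 12 male Fischer 344 rats aged 23 ± 1 months. In 9 of them the left common peroneal nerve was silenced by tetrodotoxin (TTX), a sodium channel blocker, so that the left TA could not contract, and the right limb received none. Atrophy animals (3) gave their left TA once TTX had run for 6 to 7 d, recovery animals (3) after a further 9 d without TTX, and repeated atrophy animals (3) after another 5 to 6 d of TTX. Control comprised the 9 right limbs of these animals, and 3 sham animals, 1 per time point, had the same surgery without TTX. Control limbs thus belong to animals that carried TTX on the other side, each time point is a separate set of 3 animals of 1 sex, and no young animals were included. Every comparison with control uses the same 9 right limbs, so results of the 3 comparisons are not independent of each other. The tissue was bulk muscle, in which fewer cells of a type and less RNA per cell cannot be told apart.

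The deposited values are CPM (counts per 1000000 counted reads), here rescaled between limbs by the median of ratios and called rescaled CPM. A gene was called higher or lower where it differed by 1.2-fold or more with a p, adjusted over 14031 rows by Benjamini and Hochberg, no higher than 0.05 (limma, log2 of rescaled CPM + 1), and log2 fold changes (FC) are on that scale. The depth inferred from the steps between low values was 18861163 to 30893756 reads per limb. Markers of muscle fibres were above 0 in every limb, and their summed level was 174097 to 307126 rescaled CPM in control, 69905 to 187811 after atrophy, 203303 to 250874 after recovery and 95304 to 149666 after repeated atrophy. Of 16 macrophage markers, 0 were called after atrophy, 12 rose after recovery (summed level 104 to 329 rescaled CPM in control and 326 to 592 after recovery) and 1 fell after repeated atrophy. Of 7 fibroblast markers, 6 rose after recovery, from a summed level of 208 to 745 rescaled CPM in control to 1469 to 2359, and 0 were called after atrophy or repeated atrophy. Of 7 endothelial markers, 1 fell after recovery and 4 after repeated atrophy, and of 6 Schwann cell and 4 adipocyte markers 0 were called vs. control in any left TTX group. In the blocked fit 0 macrophage and 1 fibroblast markers rose after recovery. The part of these cells in the results below was not tested.

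Some limbs stood apart for these genes before any comparison. The right limb of animal 372, a control limb, was the highest of the 9 for 21 of the 42 genes and the lowest for 1. The left limb of animal 367, taken after atrophy, lay within the control range for Ctsb, Hexa and Psap, where the other limbs after atrophy lay outside it. The right limbs of the 3 recovery animals all lay below the other 6 control limbs for 7 of the 42 genes (3.97% of all rows did so), which were the 5 genes of the Atg8 family, Sqstm1 and Ctsl. For the Atg8 gene Map1lc3b these limbs ranged from 194 to 207 rescaled CPM and the other 6 from 282 to 703. For Ctsl the ranges were 92.6 to 110.3 and 226 to 626 rescaled CPM. The right limbs of the atrophy animals and of the repeated atrophy animals held no such gene among the 42. Counts are therefore given also with each left limb set against the right limb of its own animal (the animal as a block, or blocked fit) and without the limbs of animals 372 and 367. Left-limb values are listed by animal, in the order 362, 367 and 372 for atrophy, 369, 370 and 371 for recovery and 364, 365 and 366 for repeated atrophy.

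After atrophy, 4 of the 42 genes rose and 4 fell vs. control, beside 4.57% and 5.17% of all rows. After recovery, 0 rose and 10 fell, beside 6.24% and 5.87% of all rows. After repeated atrophy, 13 rose and 4 fell, where 13.2% and 12% of all rows did. Repeated atrophy thus held the largest number of rises, among them all 4 receptors, Vcp and the cathepsins Ctsb and Ctsl, while recovery held falls only. After atrophy the 42 genes had a median log2 FC of 0.18, against -0.28 in recovery and 0.25 in repeated atrophy, beside -0.0017, 0.01 and -0.01 over all rows. The limbs of group and control did not overlap for 1, 13 and 12 of the 42 genes, beside 4.03%, 12.8% and 16.5% of all rows.

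With the animal as a block in limma, 0 of the 42 genes were called after atrophy (0% of all rows) and 0 after recovery (0.449%), where 8 and 13 had an unadjusted p below 0.05 (15.3% and 22% of all rows), while 12 rose and 3 fell after repeated atrophy (10.8% and 10.2%). Of the 17 genes called after repeated atrophy, 14 were called in both fits, and the block added Map1lc3b. On the deposited CPM with no rescaling, 19 genes rose and 0 fell after atrophy (20.3% and 2.33% of all rows), and 20 rose and 1 fell after repeated atrophy (28.1% and 6.24%), and that scale shifts the median of all rows by 0.22 and 0.20. The count after atrophy rested on single animals (both limbs left out). Without animal 362 or without animal 372 it was 0 rises and 0 falls, without animal 367 it was 10 and 6, without animal 369 or 370 (recovery animals, which enter through their right limbs and the pooled spread) it was 2 and 0, without animal 371 it was 3 and 1, without animal 365 it was 2 and 1, and with the right limb of animal 372 alone left out it was 11 and 4. Calls over all rows moved with it, from 1367 to 0 without animal 362, 196 without 372, 2498 without 367, 503 without 369, 673 without 370, 803 without 371 and 719 without 365. After recovery, 3 genes fell without animal 369 and 4 without animal 370, where calls over all rows went from 1699 to 404 and 849. After repeated atrophy, 6 rose without animal 364 and 7 without animal 365, where calls over all rows went from 3543 to 2552 and 2004.

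**Figure D1:**
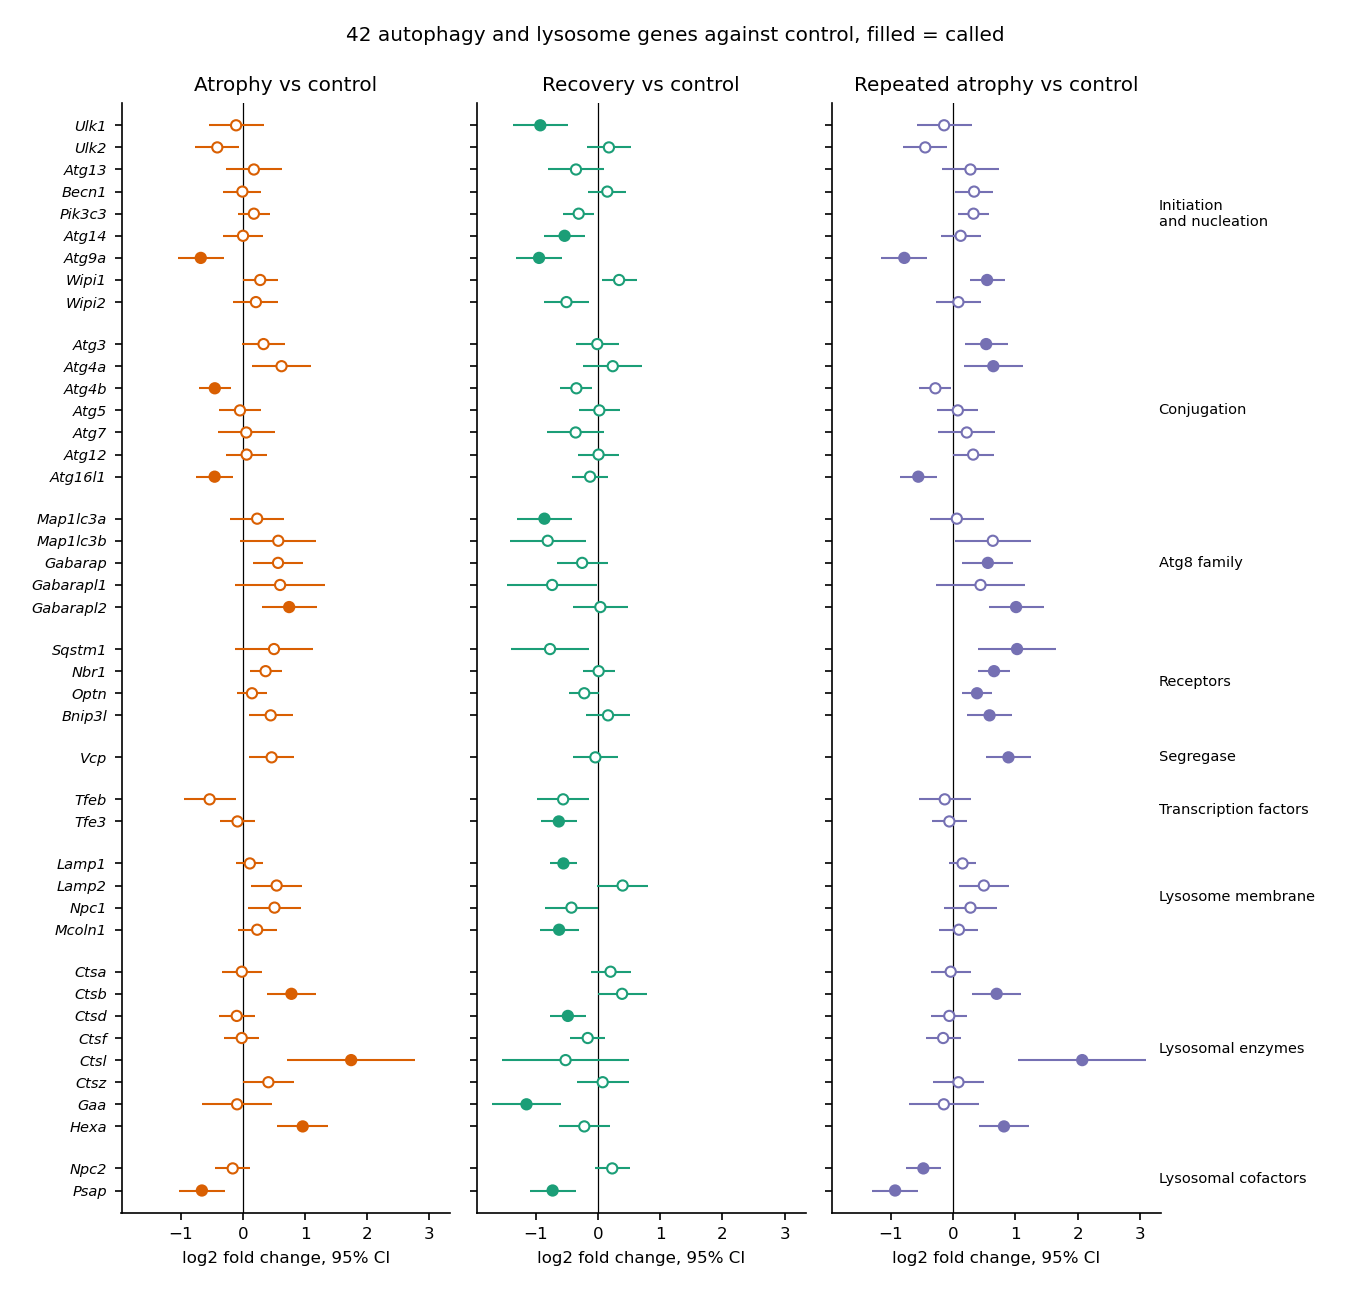
The log2 FC of each of the 42 genes vs. control (x axis, rescaled CPM, bars are 95% confidence intervals) after atrophy (3 left limbs), recovery (3) and repeated atrophy (3), each against the same 9 right limbs, with genes grouped by role on the y axis. Filled points passed the test, which were 4 rises and 4 falls after atrophy, 10 falls after recovery, and 13 rises and 4 falls after repeated atrophy.

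Levels in control differed widely between the 42 genes. Per kilobase of transcript, the highest were Sqstm1 at 455 rescaled CPM per kb, Psap at 402, Ctsd at 351, Lamp1 at 345 and Gabarap at 309.6. The lowest were Atg14 at 3.95 and Atg7 at 4.19 rescaled CPM per kb. Control limbs differed most for Ctsl, with an SD of 63.8% of the mean, and least for the lysosome membrane gene Lamp1, with 3.55%.

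Among the 9 initiation and nucleation genes, 1 fell after atrophy, 3 fell after recovery, and 1 rose and 1 fell after repeated atrophy. The gene called in all 3 comparisons was Atg9a (rn7, chromosome 9, 76677404 to 76687987), whose product is a membrane protein that supplies lipid to the growing autophagosome. It had 159.8 to 249 (median 222) rescaled CPM in control. After atrophy its limbs held 99.5, 183 and 127 rescaled CPM, after recovery 103, 127 and 99.9, and after repeated atrophy 141, 96.5 and 134. All limbs after recovery and repeated atrophy lay below control, and after atrophy 1 limb lay within it. Atg9a fell after atrophy (log2 FC -0.67, SE 0.18, adjusted p = 0.026), recovery (log2 FC -0.95, SE 0.18, adjusted p = 0.0037) and repeated atrophy (log2 FC -0.79, SE 0.18, adjusted p = 0.0031). In the blocked fit, only the fall after repeated atrophy kept its call (adjusted p = 0.29, 0.077 and 0.044 in the same order), and on the deposited CPM with no rescaling only the fall after recovery did (adjusted p = 0.17, 0.0029 and 0.051).

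Ulk1 (rn7, chromosome 12, 45851710 to 45877967), the kinase at the head of the pathway, had 41.9 to 91.8 (median 56.6) rescaled CPM in control. After recovery its limbs held 27.3, 30.7 and 29.4 rescaled CPM, all below control, and it fell (log2 FC -0.93, SE 0.21, adjusted p = 0.011, blocked adjusted p = 0.052). After atrophy the limbs held 34.1, 56.2 and 73.6 rescaled CPM and after repeated atrophy 56.4, 45.8 and 50.3. The limb of animal 362 after atrophy lay below control and the others within it, and neither comparison passed the test (log2 FC -0.11 and -0.15). The related kinase Ulk2 did not pass in any comparison with control (log2 FC -0.41, 0.18 and -0.45 after atrophy, recovery and repeated atrophy), although its left limb was below the right in 3 of 3 atrophy and 3 of 3 repeated atrophy animals. Atg14, the subunit that directs the lipid kinase to autophagy, fell after recovery from 13.5 ± 2.53 (SD, n = 9) to 8.85 ± 0.659 (SD, n = 3) rescaled CPM (log2 FC -0.54, adjusted p = 0.031), and its limbs overlapped control. Its adjusted p was 0.33 in the blocked fit and 0.13 on the deposited CPM. The lipid-binding Wipi1 rose after repeated atrophy from 64.9 ± 7.76 to 94.8 ± 10.1 rescaled CPM (log2 FC 0.54, adjusted p = 0.0064), with no overlap of limbs. Atg13, Becn1, Pik3c3 and Wipi2 were not called in any comparison with control, with log2 FC between -0.51 (Wipi2 after recovery) and 0.33 (Becn1 after repeated atrophy). A second row of Becn1, a transcript of 2108 bases, was not called either. Its log2 FC was 0.28 after atrophy, 0.42 after recovery (limma, adjusted p = 0.088) and 0.27 after repeated atrophy. The recovery limbs of Pik3c3 and Wipi2 all lay below control without passing the test. Those of Wipi1 (88.1, 79.9 and 77.9 rescaled CPM) all lay above control (highest limb 77.1), also without passing it.

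Of the 7 conjugation genes, 2 fell after atrophy, 0 were called after recovery, and 2 rose and 1 fell after repeated atrophy. Atg4a, a protease that trims Atg8 proteins and releases them from membranes, had 46.0 to 104 (median 65.1) rescaled CPM in control. Its limbs held 118, 90.1 and 118 rescaled CPM with atrophy, 84.3, 84.6 and 78.4 after recovery and 153, 115 and 74.8 with repeated atrophy. After atrophy and after repeated atrophy, 2 of 3 limbs lay above control, and Atg4a rose after repeated atrophy (log2 FC 0.64, SE 0.23, adjusted p = 0.045). Its homologue Atg4b fell after atrophy from 25.4 ± 2.85 to 18.2 ± 1.12 rescaled CPM (log2 FC -0.45, adjusted p = 0.029), the only one of the 42 genes whose atrophy limbs did not overlap control. Its blocked adjusted p was 0.33, and on the deposited CPM it was 0.67.

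Atg16l1, which places the conjugation complex on the membrane, had 29.2 to 40.6 (median 35.2) rescaled CPM in control. Its limbs held 19.7, 30.6 and 26.7 rescaled CPM with atrophy, 28.8, 40.3 and 27.8 after recovery and 22.1, 23.5 and 24.3 with repeated atrophy. All limbs after repeated atrophy lay below control. It fell after atrophy (log2 FC -0.45, SE 0.14, adjusted p = 0.048) and repeated atrophy (log2 FC -0.56, SE 0.14, adjusted p = 0.0066), and neither call held in the blocked fit (adjusted p = 0.35 and 0.084) or on the deposited CPM (adjusted p = 0.69 and 0.31). Atg3, the enzyme that transfers Atg8 proteins to lipid, rose after repeated atrophy from 35.3 ± 6.86 to 51.1 ± 9.04 rescaled CPM (log2 FC 0.53, adjusted p = 0.025). Atg5, Atg7 and Atg12 were not called in any comparison with control, with log2 FC from -0.36 (Atg7 after recovery) to 0.32 (Atg12 after repeated atrophy).

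In the Atg8 family, 1 of 5 genes rose after atrophy, 1 fell after recovery and 2 rose after repeated atrophy. The clearest was Gabarapl2 (rn7, chromosome 19, 39910572 to 39921409), also known as GATE-16, which had 115 to 232 (median 152) rescaled CPM in control. Its limbs held 373, 191 and 246 rescaled CPM with atrophy, 159.8, 152 and 165 after recovery and 347, 347 and 252 with repeated atrophy. All limbs after repeated atrophy lay above control, whereas 1 limb after atrophy and all after recovery lay within it. Gabarapl2 rose after atrophy (log2 FC 0.75, SE 0.21, adjusted p = 0.034) and repeated atrophy (log2 FC 1.01, SE 0.21, adjusted p = 0.002), and the block left the first uncalled (adjusted p = 0.37) while the second passed (log2 FC 1.00, adjusted p = 0.0093).

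Map1lc3b, which encodes the LC3B protein used to follow autophagosomes, had 194 to 703 (median 299) rescaled CPM in control. Its limbs held 372, 474 and 536 rescaled CPM with atrophy, 169, 168 and 187 after recovery and 584, 443 and 417 with repeated atrophy. All recovery limbs lay below all control limbs, and the other groups overlapped control. None of the 3 comparisons passed (log2 FC 0.57, SE 0.29, adjusted p = 0.22 after atrophy, log2 FC -0.81, SE 0.29, adjusted p = 0.075 after recovery and log2 FC 0.64, SE 0.29, adjusted p = 0.12 after repeated atrophy). Within animals, the left limb was above the right in 3 of 3 animals after repeated atrophy, and the blocked fit called it higher (log2 FC 0.55, adjusted p = 0.037). On the deposited CPM it was called higher after atrophy (adjusted p = 0.048) and repeated atrophy (adjusted p = 0.024).

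Map1lc3a, which encodes LC3A, had 169 to 323 (median 285) rescaled CPM in control and 129, 133 and 141 after recovery. These recovery limbs lay below all 9 control limbs, and it fell (log2 FC -0.86, SE 0.21, adjusted p = 0.014). The right limbs of the same animals held 169 to 179 rescaled CPM, the lowest of the control group, and against them the difference was -0.38 on the log2 scale (blocked adjusted p = 0.18). After atrophy its limbs held 249, 327 and 290.4 rescaled CPM and after repeated atrophy 337, 232 and 210.4, overlapping control. Gabarap rose after repeated atrophy from 255 ± 63.1 to 371 ± 76.8 rescaled CPM (log2 FC 0.56, adjusted p = 0.043) with overlapping limbs. Gabarapl1 was not called in any comparison with control (log2 FC 0.60, -0.74 and 0.44), and its control limbs ranged from 73.5 to 293 rescaled CPM.

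**Figure D2:**
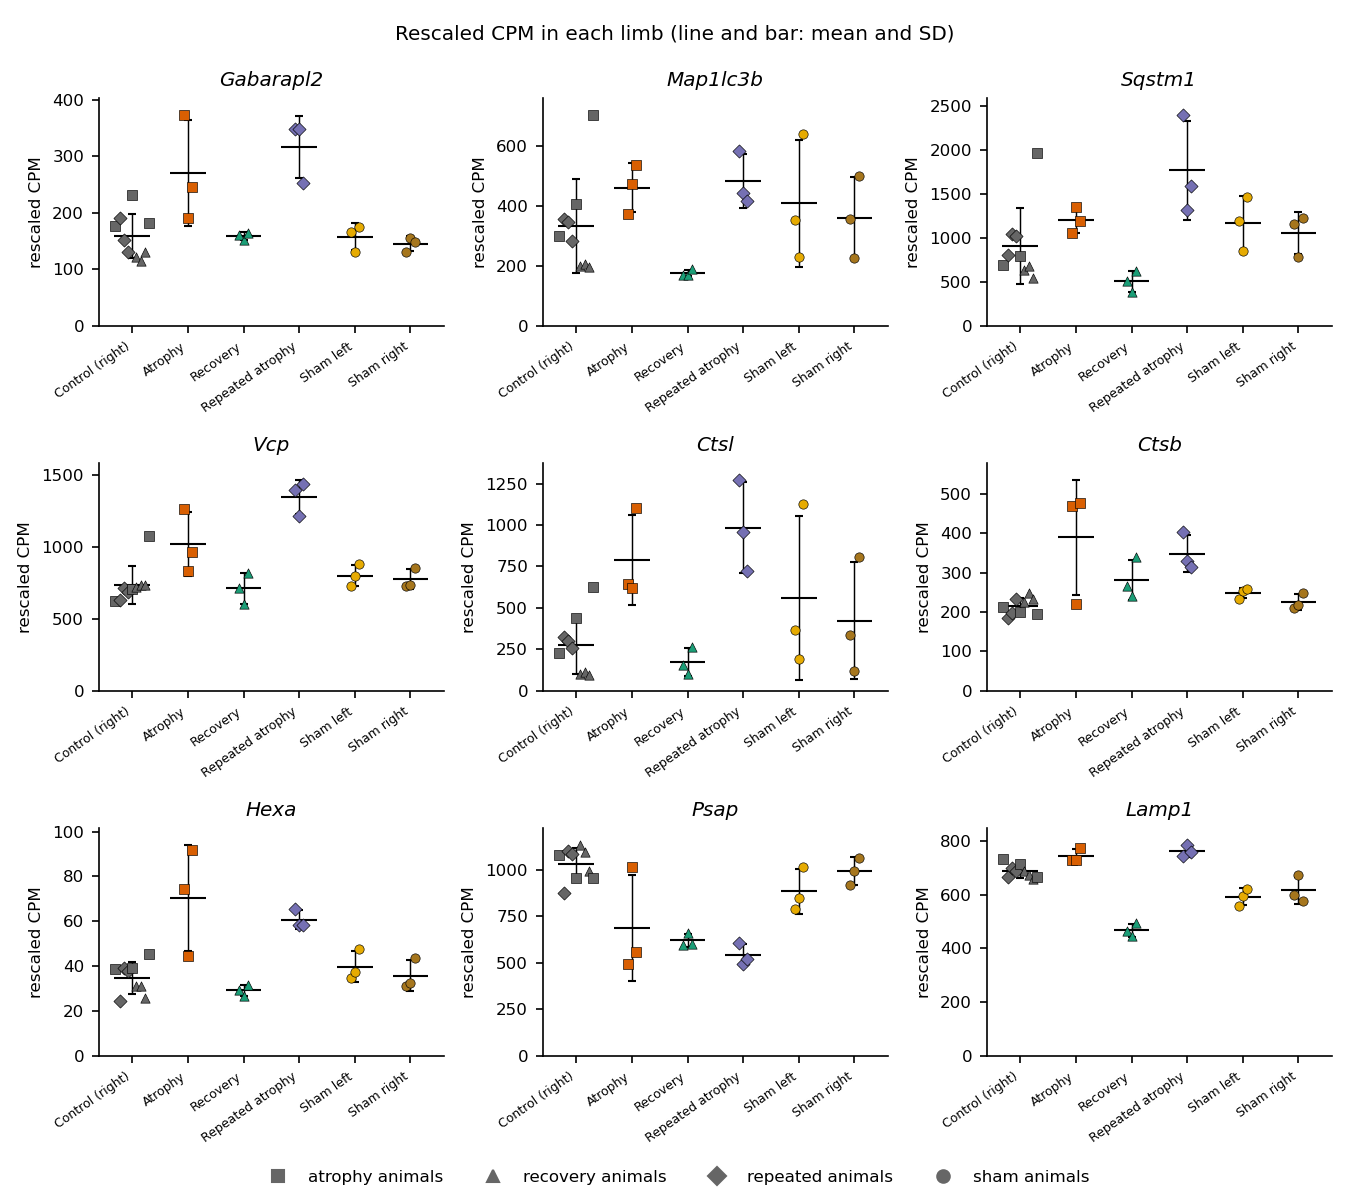
Rescaled CPM (y axis, from 0) in each limb for 9 of the genes, with the 9 control limbs, the 3 left limbs after atrophy, recovery and repeated atrophy, and the left and right limbs of the 3 sham animals on the x axis. Horizontal lines and bars give mean and SD, and marker shapes give the set of animals. Repeated atrophy limbs lie above control for Gabarapl2, Vcp, Ctsl, Ctsb, Hexa and, by less, Lamp1 and below it for Psap, and recovery limbs lie below it for Map1lc3b, Lamp1 and Psap.

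All 4 receptors rose after repeated atrophy, and 0 of 4 were called after atrophy or recovery. Sqstm1 (rn7, chromosome 10, 34525517 to 34536671), which encodes p62, had 546 to 1963 (median 796) rescaled CPM in control. Its limbs held 1058, 1348 and 1185 rescaled CPM with atrophy, 502, 385 and 615 after recovery and 2396, 1318 and 1586 with repeated atrophy. The control limb of animal 372 at 1963 lay above 2 of the 3 repeated atrophy limbs, and the other 8 lay below all of them. Sqstm1 rose after repeated atrophy (log2 FC 1.02, SE 0.30, adjusted p = 0.017), a call not held in the blocked fit (log2 FC 0.86, adjusted p = 0.093). After atrophy (log2 FC 0.50, adjusted p = 0.3) and recovery (log2 FC -0.77, adjusted p = 0.096) it did not pass.

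Nbr1, a receptor that binds ubiquitin and LC3 as p62 does, had 106 to 148 (median 127) rescaled CPM in control. Its limbs held 181, 134 and 168 rescaled CPM with atrophy, 112, 122 and 142 after recovery and 199, 195 and 191 with repeated atrophy, the last all above control. It rose after repeated atrophy (log2 FC 0.65, SE 0.12, adjusted p = 0.00089), also in the blocked fit (adjusted p = 0.01). Bnip3l, a receptor for mitochondria also known as Nix, had 58.3 to 106 (median 76.4) rescaled CPM in control. Its limbs held 144, 99.4 and 90.1 rescaled CPM with atrophy, 92.8, 91.1 and 83.2 after recovery and 123, 135 and 103 with repeated atrophy, where it rose (log2 FC 0.58, SE 0.17, adjusted p = 0.017) and 1 limb overlapped control. Optn, which encodes optineurin, rose after repeated atrophy from 247 ± 22.8 to 322 ± 13.1 rescaled CPM (log2 FC 0.38, adjusted p = 0.022), with no overlap of limbs and a blocked adjusted p of 0.053.

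Vcp (rn7, chromosome 5, 57210167 to 57229572), the ATPase that extracts ubiquitinated proteins from complexes and membranes, had 624 to 1074 (median 710.0) rescaled CPM in control. Its limbs held 1264, 828 and 962 rescaled CPM with atrophy, 716, 601 and 815 after recovery and 1392, 1214 and 1436 with repeated atrophy. All repeated atrophy limbs lay above all control limbs, including that of animal 372, which was the highest. Vcp rose after repeated atrophy (log2 FC 0.89, SE 0.17, adjusted p = 0.0012) and did not pass after atrophy (log2 FC 0.46, adjusted p = 0.092) or recovery (log2 FC -0.04, adjusted p = 0.9). With the right limb of animal 372 left out, Vcp passed also after atrophy (log2 FC 0.53, adjusted p = 0.021).

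Of the 2 factors, 0 rose in any comparison with control and 1 fell after recovery. Tfeb had 44.4 to 90.5 (median 78.0) rescaled CPM in control, and its limbs held 48.9, 57.7 and 41.3 with atrophy, 46.6, 49.2 and 47.7 after recovery and 69.2, 47.2 and 82.1 with repeated atrophy. All groups overlapped control, and none passed (log2 FC -0.53, adjusted p = 0.095 after atrophy, log2 FC -0.56, adjusted p = 0.072 after recovery and log2 FC -0.14, adjusted p = 0.67 after repeated atrophy). Tfe3 had 28.7 to 45.8 (median 38.3) rescaled CPM in control, and 32.4, 39.5 and 37.1 with atrophy, 25.9, 22.8 and 25.0 after recovery and 47.0, 33.8 and 31.3 with repeated atrophy. All recovery limbs lay below control, and Tfe3 fell there (log2 FC -0.63, SE 0.14, adjusted p = 0.0082, blocked adjusted p = 0.13). These are transcript levels, and the place of either protein in the cell was not measured.

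Of the 4 lysosome membrane genes, 2 fell after recovery and 0 were called after atrophy or repeated atrophy. Lamp1 (rn7, chromosome 16, 76356236 to 76372921), a main protein of the lysosomal membrane, had 659.8 to 732 (median 688) rescaled CPM in control. Its limbs held 729, 729 and 775 rescaled CPM with atrophy, 466, 445 and 492 after recovery and 743, 786 and 758 with repeated atrophy. All recovery limbs lay far below control, and all repeated atrophy limbs lay just above it. Lamp1 fell after recovery (log2 FC -0.56, SE 0.10, adjusted p = 0.0038, blocked adjusted p = 0.099) and did not pass after repeated atrophy (log2 FC 0.15, adjusted p = 0.32). In the sham animals it held 558, 596 and 621 rescaled CPM in the left and 599, 673 and 578 in the right limbs, mostly below control and all above the recovery limbs.

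Mcoln1, the calcium channel of the lysosome also known as TRPML1, had 18.7 to 32.5 (median 23.8) rescaled CPM in control. Its limbs held 28.9, 29.9 and 30.5 rescaled CPM with atrophy, 16.3, 13.6 and 18.4 after recovery and 26.0, 27.1 and 27.6 with repeated atrophy. The recovery limbs lay below control, and it fell (log2 FC -0.63, SE 0.15, adjusted p = 0.013, blocked adjusted p = 0.14), a call also lost on the deposited CPM (adjusted p = 0.068). Lamp2 and the cholesterol transporter Npc1 were not called in any comparison with control. Their log2 FC were 0.54 and 0.51 with atrophy, 0.40 and -0.43 after recovery, and 0.49 and 0.28 with repeated atrophy.

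Of the 8 lysosomal enzymes, the same 3 (Ctsb, Ctsl and Hexa) rose after atrophy and after repeated atrophy, and 2 others (Ctsd and Gaa) fell after recovery. Ctsl (rn7, chromosome 17, 764373 to 770534), which encodes the cysteine protease cathepsin L, showed the largest difference of the 42 genes. It had 92.6 to 626 (median 259) rescaled CPM in control. Its limbs held 644, 622 and 1105 rescaled CPM with atrophy, 153, 97.8 and 263 after recovery and 1273, 961 and 720.2 with repeated atrophy. All repeated atrophy limbs lay above control, and the control limb of animal 372 lay within the atrophy limbs. Ctsl rose after atrophy (log2 FC 1.74, SE 0.49, adjusted p = 0.033) and repeated atrophy (log2 FC 2.07, SE 0.49, adjusted p = 0.0046, 95% interval 1.05 to 3.10). In the blocked fit, the first was not called (log2 FC 0.94, adjusted p = 0.18) and the second was (log2 FC 1.71, adjusted p = 0.0044).

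After recovery the direction for Ctsl depended on the control limbs. Against all 9 control limbs the log2 FC was -0.52 (adjusted p = 0.51), and against the right limbs of the same animals it was 0.64 (blocked adjusted p = 0.22), neither past the test. In the sham animals Ctsl held 368, 189 and 1124 rescaled CPM in the left and 337, 118 and 808 in the right limbs, in the order of animals 354, 377 and 379. Animal 379 thus reached the level of the atrophied limbs on both sides without TTX.

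Ctsb, which encodes cathepsin B, had 184 to 247 (median 213) rescaled CPM in control, a narrow range. Its limbs held 470.2, 220.4 and 477 rescaled CPM with atrophy, 265, 241 and 339 after recovery and 402, 329 and 314 with repeated atrophy. After atrophy the limb of animal 367 lay within control and the other 2 far above it, and all repeated atrophy limbs lay above control, as did 2 recovery limbs, of which that of animal 371 was higher than 2 of the 3 repeated atrophy limbs. Ctsb rose after atrophy (log2 FC 0.78, SE 0.19, adjusted p = 0.02, blocked adjusted p = 0.17) and after repeated atrophy (log2 FC 0.70, SE 0.19, adjusted p = 0.011, blocked adjusted p = 0.037). Hexa, a subunit of the glycosidase beta-hexosaminidase, had 24.2 to 45.4 (median 37.9) rescaled CPM in control. Its limbs held 74.5, 44.7 and 91.8 rescaled CPM with atrophy, 29.1, 26.7 and 31.7 after recovery and 65.5, 58.5 and 58.2 with repeated atrophy, the last all above control. Hexa rose after atrophy (log2 FC 0.96, SE 0.19, adjusted p = 0.011, blocked adjusted p = 0.18) and after repeated atrophy (log2 FC 0.81, SE 0.19, adjusted p = 0.005, blocked adjusted p = 0.017).

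Gaa (rn7, chromosome 10, 104529824 to 104546837), the enzyme that breaks down glycogen in the lysosome, had 161 to 435 (median 205) rescaled CPM in control. Its limbs held 167, 245 and 237 rescaled CPM with atrophy, 92.6, 97.6 and 117 after recovery and 274, 140.4 and 222 with repeated atrophy. All recovery limbs lay below control, and the other groups overlapped it. Gaa fell after recovery (log2 FC -1.15, SE 0.27, adjusted p = 0.012), the largest fall vs. control among the 42 genes, with a blocked adjusted p of 0.17. Ctsd, the aspartic protease cathepsin D, fell after recovery from 698 ± 93.6 to 495 ± 17.6 rescaled CPM (log2 FC -0.48, adjusted p = 0.029, blocked adjusted p = 0.25), with no overlap of limbs, and was not called on the deposited CPM (adjusted p = 0.081). Ctsa, Ctsf and Ctsz were not called, with log2 FC between -0.17 (Ctsf after recovery) and 0.41 (Ctsz after atrophy).

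Tfeb and Tfe3 are known to bind a short element whose core is CACGTG. The promoters of 4 genes that fell after recovery are printed because they hold it, as the 250 bases before the start of the gene (RefSeq, build GRCr8, another build than the rn7 coordinates above), with each CACGTG in capitals. Lamp1 lies on the minus strand at chr16:83075064-83075313, Mcoln1 on the plus strand at chr12:6358008-6358257, Ctsd on the minus strand at chr1:206968822-206969071 and Gaa on the plus strand at chr10:105028105-105028354.
Lamp1: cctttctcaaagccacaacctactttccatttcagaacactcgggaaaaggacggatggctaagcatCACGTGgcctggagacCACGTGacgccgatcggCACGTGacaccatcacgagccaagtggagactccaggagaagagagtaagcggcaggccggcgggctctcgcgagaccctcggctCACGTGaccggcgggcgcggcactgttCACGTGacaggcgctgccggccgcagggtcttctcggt
Mcoln1: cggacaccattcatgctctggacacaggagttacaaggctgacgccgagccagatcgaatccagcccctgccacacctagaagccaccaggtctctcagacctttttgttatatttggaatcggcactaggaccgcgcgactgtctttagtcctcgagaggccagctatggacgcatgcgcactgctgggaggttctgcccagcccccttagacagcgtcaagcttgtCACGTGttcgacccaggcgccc
Ctsd: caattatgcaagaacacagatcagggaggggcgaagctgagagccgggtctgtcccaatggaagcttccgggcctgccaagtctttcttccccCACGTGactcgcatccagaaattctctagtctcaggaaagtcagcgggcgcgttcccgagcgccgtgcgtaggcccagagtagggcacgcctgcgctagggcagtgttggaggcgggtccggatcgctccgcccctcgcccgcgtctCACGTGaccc
Gaa: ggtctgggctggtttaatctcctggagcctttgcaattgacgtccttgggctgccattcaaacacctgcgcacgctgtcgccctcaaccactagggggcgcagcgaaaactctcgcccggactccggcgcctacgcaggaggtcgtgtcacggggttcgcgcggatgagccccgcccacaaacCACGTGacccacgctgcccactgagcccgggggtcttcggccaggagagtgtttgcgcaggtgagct
The 6 letters read the same on both strands, so 1 search covers both, and no other motif was searched. The RefSeq table held a promoter for 35 of the 42 genes (none for Becn1, Atg9a, Map1lc3a, Bnip3l, Ctsb, Hexa and Psap), from 250 bases before to 50 after the start. CACGTG was found in 8 of the 35 (22.9%), which were Atg14, Atg3, Atg5, Lamp1, Mcoln1, Ctsd, Ctsf and Gaa, and in 2148 of 33469 promoters of the same length (6.42%). The second copy of Mcoln1 lies past the printed stretch. Lamp1 held 5 copies, the only promoter of the 33469 with so many. The 10 genes lower after recovery were called against the 9 pooled right limbs, and 0 of them in the blocked fit. Of these 10, 7 had a promoter in the table and 5 of the 7 held the motif, beside 3 of the 28 others. This split was drawn after the values were seen and is a description of letters, not of binding.

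Of the 2 cofactors, Psap fell in all 3 comparisons. Psap (rn7, chromosome 20, 28214271 to 28240502) encodes prosaposin, the precursor of the saposins that present lipids to lysosomal enzymes. It had 875 to 1136 (median 1080.1) rescaled CPM in control, and 492, 1016 and 556 with atrophy, 598, 663 and 603 after recovery and 607, 493 and 520.2 with repeated atrophy. All recovery and repeated atrophy limbs lay below control, and the atrophy limb of animal 367 lay within it. Psap fell after atrophy (log2 FC -0.66, SE 0.18, adjusted p = 0.028), recovery (log2 FC -0.73, SE 0.18, adjusted p = 0.014) and repeated atrophy (log2 FC -0.93, SE 0.18, adjusted p = 0.00093), and in the blocked fit only after repeated atrophy (adjusted p = 0.26, 0.12 and 0.021). On the deposited CPM the fall after atrophy was not called (adjusted p = 0.19). The table holds 4 rows for Psap, transcripts of 2557 to 2569 bases over the same span, and all 4 had a negative log2 FC in all 3 comparisons. Summed over the 4 rows, Psap had 1617 ± 123 rescaled CPM in control (SD, n = 9), 1082 ± 429 with atrophy, 1025 ± 85.7 after recovery and 865 ± 110.0 after repeated atrophy (n = 3 each). The sterol carrier Npc2 fell after repeated atrophy from 60.4 ± 8.06 to 42.7 ± 3.47 rescaled CPM (log2 FC -0.48, adjusted p = 0.014, blocked adjusted p = 0.026). On the deposited CPM, Npc2 was not called (adjusted p = 0.64).

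Leaving out the right limb of animal 372, an alternative chosen after the data were seen, raised the count after atrophy from 4 to 11 rises, while calls over all rows went from 1367 of 14031 to 2068 of 14010. The 7 added genes were Map1lc3b (log2 FC 0.72, adjusted p = 0.034), Gabarap (log2 FC 0.62, adjusted p = 0.034), Atg4a (log2 FC 0.68, adjusted p = 0.048), Nbr1 (log2 FC 0.40, adjusted p = 0.031), Vcp, Lamp2 (log2 FC 0.60, adjusted p = 0.037) and Npc1 (log2 FC 0.63, adjusted p = 0.007). After repeated atrophy the rises went from 13 to 17 and calls over all rows from 3543 to 3912, with Map1lc3b (log2 FC 0.79, adjusted p = 0.012), Pik3c3 (log2 FC 0.35, adjusted p = 0.039) and Lamp2 (log2 FC 0.55, adjusted p = 0.035) among those added. Ulk2 passed as lower after repeated atrophy without that limb (log2 FC -0.47, adjusted p = 0.049), and without the left limb of animal 367 it passed as lower after atrophy (log2 FC -0.66, adjusted p = 0.01) and repeated atrophy (log2 FC -0.45, adjusted p = 0.023). Leaving out that left limb gave 2223 calls over all rows after atrophy and 3625 after repeated atrophy. For Ctsb and Psap the right limb of animal 372 lay among the other control limbs, and for Hexa just above them.

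**Figure D3:**
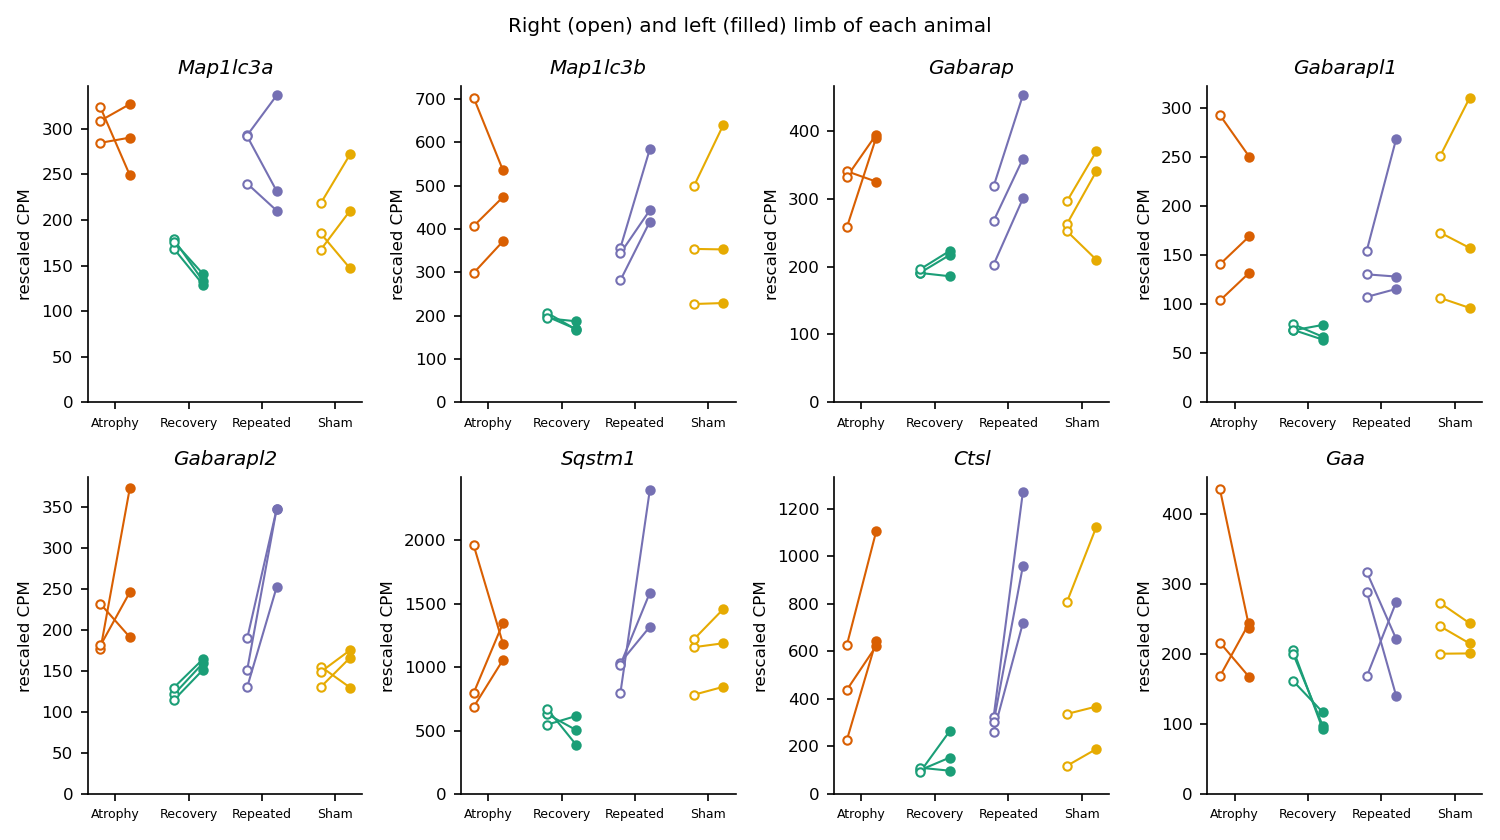
Rescaled CPM (y axis, from 0) in the right (open) and left (filled) limb of each animal, joined by a line, for the 5 Atg8 genes, Sqstm1, Ctsl and Gaa, with the 3 atrophy, 3 recovery, 3 repeated atrophy and 3 sham animals along the x axis. The right limbs of the recovery animals are the lowest of the control group for all genes shown but Gaa, and the right limb of animal 372 is the highest for Map1lc3b, Gabarapl1, Sqstm1, Ctsl and Gaa.

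The 25 machinery genes and the 8 enzymes were compared over all limb groups. After atrophy, 1 machinery gene rose and 3 fell, and 3 enzymes rose and 0 fell, beside 4.57% and 5.17% of all rows. After recovery, 4 machinery genes and 2 enzymes fell, beside 5.87% of all rows. After repeated atrophy, 9 machinery genes rose and 2 fell, against 3 and 0 enzymes, beside 13.2% and 12% of all rows. In the blocked fit 0 genes of either class were called after atrophy or recovery, and after repeated atrophy 8 machinery genes rose and 1 fell and 3 enzymes rose. On the deposited scale 10 machinery genes and 4 enzymes rose after atrophy and 0 fell (20.3% and 2.33% of all rows). After recovery 3 machinery genes and 1 enzyme fell on that scale and 0 rose, where 1084 of 14031 rows were called. After repeated atrophy 13 machinery genes and 3 enzymes rose on it with 0 falls (28.1% and 6.24% of all rows). The median log2 FC of the machinery genes was 0.18, -0.26 and 0.33 after atrophy, recovery and repeated atrophy, and that of the enzymes 0.20, -0.19 and 0.02. On the deposited CPM the medians were 0.54, -0.24 and 0.70 for the machinery and 0.57, -0.18 and 0.39 for the enzymes.

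Averaged over genes in each limb, the mean log2 level of the machinery was 5.96 to 6.50 in control, 6.28 to 6.39 after atrophy, 5.84 to 5.91 after recovery and 6.32 to 6.56 after repeated atrophy (log2 of rescaled CPM + 1). The recovery limbs lay below all control limbs, and the other groups overlapped control. The enzymes averaged 6.47 to 7.28 in control, 7.03 to 7.55 after atrophy, 6.40 to 6.76 after recovery and 7.06 to 7.44 after repeated atrophy, with overlap throughout. The enzyme mean minus the machinery mean was 0.35 to 1.00 in control, 0.74 to 1.16 after atrophy, 0.51 to 0.85 after recovery and 0.68 to 0.88 after repeated atrophy. This difference overlapped between control and every group.

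Within animals, the left minus right difference of the machinery mean was 0.32, 0.19 and 0.27 after repeated atrophy, -0.18, -0.07 and -0.14 after recovery, 0.13, 0.02 and -0.11 after atrophy and -0.01, -0.14 and 0.07 in sham animals. The 3 repeated atrophy animals were all higher on the left and the 3 recovery animals all lower, whereas atrophy and sham animals differed in sign. For the enzymes it was 0.84, 0.10 and 0.15 after repeated atrophy, -0.06, -0.36 and 0.29 after recovery, 0.46, 0.20 and 0.27 after atrophy and 0.07, 0.19 and 0.13 in sham animals. Left limbs were higher in all atrophy, repeated atrophy and sham animals, and the sham differences overlapped those after repeated atrophy. The enzyme minus machinery difference, again left minus right, was 0.33, 0.18 and 0.38 after atrophy, 0.13, -0.30 and 0.43 after recovery, 0.52, -0.09 and -0.12 after repeated atrophy and 0.08, 0.33 and 0.06 in sham animals. It was above 0 in all atrophy and all sham animals, whose ranges overlapped, and of mixed sign in the others. Without Ctsl it was 0.18, 0.14 and 0.30 after atrophy, 0.03, -0.33 and 0.26 after recovery, 0.36, -0.32 and -0.31 after repeated atrophy and 0.07, 0.26 and 0.01 in sham animals. Only 3 animals stand behind each set, and these means were not tested.

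**Figure D4:**
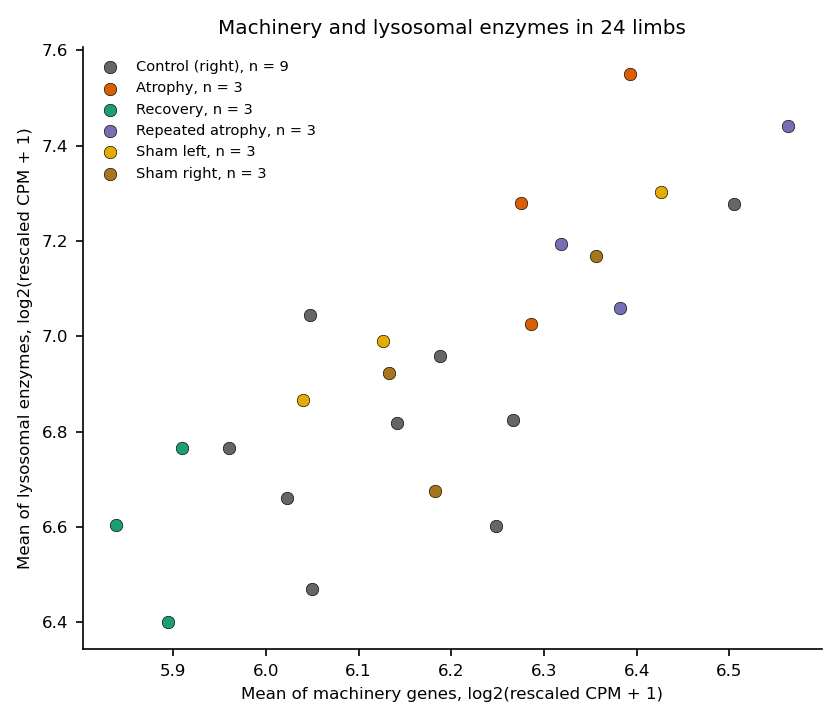
The mean log2 level (rescaled CPM + 1) of the 25 machinery genes (x axis) and of the 8 lysosomal enzymes (y axis) in each of the 24 limbs, by group. The recovery limbs, at 5.84 to 5.91 on the x axis, lie left of all 9 control limbs, which start at 5.96, and the atrophy and repeated atrophy limbs overlap control on both axes.

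Left limbs were also compared between time points, with no control limbs and other animals on each side. From atrophy to recovery, 0 of the 42 genes were higher and 15 lower (5.77% and 4.85% of all rows), with 24 showing no overlap of limbs (30.5% of all rows). The largest differences were Ctsl (log2 FC -2.26, adjusted p = 0.025), Map1lc3b (log2 FC -1.38, adjusted p = 0.023), Gabarapl1 (log2 FC -1.34, adjusted p = 0.049) and Sqstm1 (log2 FC -1.27, adjusted p = 0.035). In the Atg8 family, 4 of 5 genes were lower. Without animal 369 or without animal 370, 2 of the 42 genes were lower, where calls over all rows went from 1490 to 237 and 387. From recovery to repeated atrophy, 18 of the 42 genes were higher and 2 lower (10.3% and 11.3%), with 30 not overlapping (38.8%). Ctsl was again first (log2 FC 2.59, adjusted p = 0.0067), then Sqstm1 (log2 FC 1.80, adjusted p = 0.0033) and Map1lc3b (log2 FC 1.44, adjusted p = 0.0094), and the 2 lower genes were Ulk2 (log2 FC -0.63, adjusted p = 0.036) and Npc2 (log2 FC -0.71, adjusted p = 0.0072). Without animal 369 or without animal 370, 10 were higher and 1 lower from recovery to repeated atrophy, where calls over all rows went from 3033 to 1376 and 1493. With the right limbs of the same animals taken into account (the animal as a block), 0 of the 42 genes were called in either comparison by limma (0.0143% and 0.0499% of all rows), and 8 and 14 had an unadjusted p below 0.05 (8.07% and 18.2% of all rows). These recovery limbs come from the animals whose right limbs were low for the Atg8 family, Sqstm1 and Ctsl, and the part of the animals in the differences cannot be told apart from that of the time point.

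Between atrophy and repeated atrophy, 0 of the 42 genes were called by limma, as were 0% of all rows, and 0 of the 42 had an unadjusted p below 0.05 (6.46% of all rows). The interval of the difference was -0.93 to 1.59 for Ctsl, -0.24 to 1.29 for Sqstm1 and -0.02 to 0.87 for Vcp (log2, 95%). The larger count of calls vs. control after repeated atrophy than after atrophy is thus not a tested difference between them. Limbs did not overlap for 5 of the 42 genes (8.43% of all rows), with Becn1, Nbr1 and Optn higher and Mcoln1 and Npc2 lower after repeated atrophy. In left sham limbs vs. control, 0 of the 42 genes were called by limma (0% of 13822 rows) and 3 had an unadjusted p below 0.05 (8.56% of rows), which were Atg9a, Optn and Ctsz. In size, the largest difference was Ctsl (log2 FC 0.91, adjusted p = 0.66). Lamp1 was the only gene of the 42 with no overlap there (1.18% of all rows), at a log2 FC of -0.22. Left against right limbs of the sham animals, with the animal as a block, 0 of the 42 genes were called by limma (0% of 13483 rows), and 2 had an unadjusted p below 0.05 (3.83% of rows).

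Other genes of the route were counted from lists of 38 autophagy genes (35 tested), 52 lysosomal genes (46 tested), 16 subunits of the V-ATPase, the pump that acidifies lysosomes, and 19 upstream regulators such as mTORC1, AMPK and FoxO genes. After atrophy, 2 autophagy genes (Vmp1, log2 FC 1.53, and Atg4c, 0.66), 5 lysosomal genes (among them Manba, 1.83, and Cd63, 1.25) and 5 V-ATPase subunits (among them Atp6v1h, 0.95) rose, and 0 fell, where 4.57% and 5.17% of all rows did. In the blocked fit 0 genes of these lists were called after atrophy and 0 after recovery. The deposited scale gave more rises after atrophy, with 14 autophagy genes, 10 lysosomal genes, 11 V-ATPase subunits and 7 regulators (20.3% of all rows), and 0 falls. After recovery it gave 6 rises and 2 falls of lysosomal genes, 2 falls of autophagy genes and 1 of a V-ATPase subunit, where 1084 of 14031 rows were called. After recovery, where 6.24% of all rows rose and 5.87% fell, 3 autophagy genes fell (Atg2a, -0.91, Atg4d, -0.70, and Zfyve1, -0.47) and 0 rose. Of the lysosomal genes, 7 rose after recovery, led by Ctsk (1.49), Ctsh (1.29) and Gm2a (1.17), and 4 fell, led by Cln3 (-0.75) and Sort1 (-0.66), in the limbs where 12 of 16 macrophage and 6 of 7 fibroblast markers rose. In the same limbs 4 V-ATPase subunits fell, with Atp6v0c at -0.79, and of the regulators Foxo1 (-1.23) and Tsc2 (-0.60) fell.

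After repeated atrophy, 7 of the 35 autophagy genes rose and 4 fell, beside 13.2% and 12% of all rows, and 6 and 1 did in the blocked fit. Vmp1, which shapes the membrane that becomes the autophagosome, rose most (log2 FC 1.96), followed by the lipid kinase subunit Pik3r4 (1.06) and the fusion protein Vamp8 (1.05), while Atg101 (-1.08), a subunit of the Ulk1 complex, fell most. Of the 46 lysosomal genes, 8 rose and 6 fell, shares near those of all rows (6 and 2 in the blocked fit), with the membrane protein Cd63 (1.74) and the glycosidase Manba (1.74) at the top and the sulfatase Arsb (-0.70, not called in the blocked fit) and the mannosidase Man2b1 (-0.66) at the bottom. Neither Arsb nor Man2b1 was called on the deposited CPM. Of the 16 V-ATPase subunits, 7 rose and 0 fell (5 and 0 in the blocked fit), with Atp6v1h at 1.16 and Atp6v0d1 at 0.86. Among the regulators, the AMPK subunit Prkaa1 rose (1.05) and Prkaa2 fell (-1.29), and Rraga (0.63), a GTPase that recruits mTORC1 to the lysosome, and Lamtor5 (0.35), part of its scaffold there, rose, all 4 also in the blocked fit. With no rescaling 21 autophagy genes, 13 lysosomal genes, 11 V-ATPase subunits and 8 regulators rose after repeated atrophy (28.1% of all rows), and 1, 0, 0 and 1 fell. These lists were counted only vs. control, against the same 9 right limbs.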

How the data were processed

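RNA sequencing of TA muscle gave 1 library per limb from 24 limbs of 12 rats. Per the labels and the submitters' processing notes, reads were handled with Bowtie2 (2.2.5), STAR and Partek on rn7, and DESeq2 is named among the tools. The annotation and counting step are not given in the sources used here. The deposited values are CPM, scaled by the authors so that each limb sums to 1000000, and 3 of the 27 value columns matched no sample and were not used. Of 14271 rows, 28 were exact duplicates and were dropped, and 513 symbols had several rows, of which the row with the highest mean was used for each gene. Steps between low values gave whole reads, within 0.1 read, for 89.2% to 91.1% of the values worth up to about 20 reads, so counts were not recovered for nearly all genes and no count test was run. The inferred depth was 18861163 to 30893756 reads with a median of 26113014, which limits the precision of low values.

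CPM were divided by size factors from the median of ratios over 11397 rows (0.781 to 1.28), the scaling that the study's methods name. Rows above 0 in at least 3 limbs were tested on log2(rescaled CPM + 1) with limma 3.58.1 in R 4.3.3, with an intensity trend, over control, atrophy, recovery and repeated atrophy limbs together, and with sham left limbs in a separate fit with control. Calls required a 1.2-fold difference or more and a p, adjusted over all rows by Benjamini and Hochberg, no higher than 0.05. A fold change on this scale understates that of low genes. The tests were first run on simulated data with known changes. Python 3.11.15, numpy 2.4.6, scipy 1.17.1, pandas 2.3.3 and matplotlib 3.10.9 were used for the rest.

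Left and right limbs of 1 animal share its number, so a fit with the animal as a block was an alternative. Both limbs' departures from the mean of their group correlated with r between -0.33 and 0.54 over 10613 rows in the 9 TTX animals, and between 0.61 and 0.84 in the 3 sham animals. The control limbs are separate animals, and the 3 limbs per group are biological replicates from 3 animals. The 42 genes, the other gene lists and the cell markers were chosen with earlier results of these data known. Values in each left TTX limb, and control limbs as a range and median, are printed for 20 genes. These are Map1lc3b, Sqstm1, Ctsl and Tfeb in any case and, up to 20 in all, the genes called vs. control with the largest absolute log2 FC of at least 0.5, of 24 genes that met this rule. Of the other lists, at most the 3 largest rises and 3 largest falls per comparison with control are named. Alternatives were the scaling, the pseudocount, the filter, the trend, the fold minimum, the control limbs used, the block and leaving out each animal. Summing rows per symbol and leaving out 1 limb of animal 372 or 367 were added after the data were seen.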

Additional observations from a re-analysis of the deposited data

Results flagged for a closer look

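In the control group of 9 right limbs, 1 limb stood farther from the rest than a 95% Dixon test allows for 9 of the 42 genes, and in each case it was the right limb of animal 372. Chance alone marks about 1 in 20 groups, and the 42 genes share the same limbs. Its gap to the nearest limb, as a share of the whole range, was 0.529 for Ulk1, 0.512 for Atg13, 0.633 for Wipi2, 0.582 for Map1lc3b, 0.629 for Gabarapl1, 0.654 for Sqstm1, 0.751 for Vcp and 0.667 for Npc1, where it was the highest, and 0.618 for Npc2, where it was the lowest. The cause was not tested.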

How the results depend on the processing

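The counts of calls depended most on the scaling, the pairing and single animals. On the deposited CPM with no rescaling, 19 genes rose and 0 fell after atrophy, 20 rose and 1 fell after repeated atrophy, and from recovery to repeated atrophy 29 were higher and 0 lower. Calls over all rows in these comparisons were 3171, 4812 and 3823 on that scale, against 1367, 3543 and 3033 after rescaling. With the animal as a replicate block, which uses the pairing of limbs, 0 rose and 0 fell after atrophy, 0 fell after recovery, 0 were lower from atrophy to recovery, and 0 were higher and 0 lower from recovery to repeated atrophy. Beside the calls given with the results, the block changed no other call of the 42 genes vs. control, and its counts for the other lists stand with them. With only the right limbs of a group's own animals as control, 0 rose and 0 fell after atrophy, and 1 fell after recovery. In the repeated atrophy limbs 9 genes rose and 2 fell against that control, where 13 and 4 did against all 9 right limbs. Calls over all 14031 rows against own right limbs were 0 for atrophy, 157 for recovery and 2635 for repeated atrophy. Ctsl after recovery turned from a log2 FC of -0.52 to 0.64 with the block and with its own right limbs. Without the right limb of animal 372, 11 rose after atrophy, and without the left limb of animal 367, 7 rose after atrophy and 1 was higher from atrophy to recovery. Leaving out each TTX animal in turn, the rises ranged from 0 to 10 and the falls from 0 to 6 after atrophy, the falls from 3 to 12 after recovery, and the rises from 6 to 17 and falls from 2 to 6 after repeated atrophy. From atrophy to recovery, 0 to 1 were higher and 2 to 14 lower, and from recovery to repeated atrophy 10 to 21 were higher and 1 to 2 lower. Calls over all rows moved too, from 0 to 2498 after atrophy, 404 to 2012 after recovery and 2004 to 3915 after repeated atrophy. They ranged from 237 to 1777 from atrophy to recovery and from 1376 to 3294 from recovery to repeated atrophy. Apart from those that follow from fewer limbs, the cause of these changes was not tested.

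Of 1539 values of single genes over all alternatives, 1336 kept direction and call, 139 lost the call, 62 gained one and 2 reversed. TMM scaling, another pseudocount, other filters, no trend and no minimum fold kept every count vs. control within 1.5 times. Count tests on recovered reads were not run, since whole reads could not be recovered. Depth was inferred and counts were not at hand, so no counting interval could be given for low genes such as Atg14 and Atg7.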
